A study of Mus musculus with 45 samples.

Results

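The levels of 45 marker genes of macrophages and other leukocytes were followed in mouse liver over a dose series of TCDD, the dioxin that activates the aryl hydrocarbon receptor most strongly. They were taken as a named list from the 39179 Ensembl genes of the count files and were matched to them by symbol. They fall into 10 classes: 6 pan-leukocyte markers, 9 markers carried by resident and recruited macrophages alike, 5 markers of resident Kupffer cells, 6 of recruited and lipid-associated macrophages, 2 of monocytes and circulating myeloid cells, 3 of neutrophils, 3 of conventional dendritic cells, 4 of T cells, 4 of NK and cytotoxic cells and 3 of B cells. All 45 passed the filter of more than 4 reads in at least 1 sample, as did 17464 of all genes.

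Hepatic RNA of 45 female C57BL/6 mice was sequenced, with 5 mice in each of 9 groups. Controls received sesame oil by gavage, and the other groups received TCDD in the same oil at 8 doses, each repeated every 4 days over 28 days. The doses were 0.01 and 0.03, 0.1 and 0.3, 1 and 3, and 10 and 30 µg/kg. The sample labels also state that all the mice were ovariectomized and carry the word daily beside the 4-day interval, neither of which the study's methods mention. The mice were young when dosing began, the tissue was whole liver, and the labels give no litter, cage or sequencing pool. Values are reads on a gene per 1000000 reads on genes (CPM), scaled by TMM, a normalization that sets the bulk of genes equal between libraries. They are listed for replicates 1 to 5 of a group in turn. A marker was called when its Benjamini-Hochberg adjusted p over all 17464 genes was under 0.05 in edgeR's quasi-likelihood test against the vehicle.

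The liver holds the largest population of resident macrophages of the body, the Kupffer cells, which line the sinusoids, take up particles and dying cells from the blood and renew themselves in place. In injury, monocytes enter from the circulation and become macrophages that first lack the Kupffer markers, and in fatty or fibrotic liver some take on a lipid-associated state marked by Trem2, Gpnmb and Cd9. Neutrophils, dendritic cells and lymphocytes are also present in small numbers, so their markers are rare among transcripts that come mostly from hepatocytes. In whole liver, fewer cells of a type and less RNA of that type per cell cannot be told apart.

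Between 11767284 and 56509899 reads per liver were counted on genes, with a median of 17225047. Cyp1a1, the classical target of the receptor, was at 1.34 to 16.6 CPM in vehicle livers and at 6020 to 9064 CPM at 30 µg/kg. In the 0.01 µg/kg group 4 livers had 1.18 to 4.54 CPM of Cyp1a1 and replicate 5 had 69.7 CPM, a level inside the 25.3 to 71.8 CPM of the 0.03 µg/kg group. In the leukocyte markers themselves 3 livers stood apart from their groups. Replicate 5 at 0.01 µg/kg was the highest of its group for 39 of the 45 markers, and replicate 1 at 3 µg/kg was the highest for 42. Replicate 4 at 30 µg/kg was the lowest of its group for 40 markers and the highest for none. The markers summed to 1577 CPM in the 0.01 µg/kg liver against 290 to 502 CPM in the rest of its group, to 1133 CPM in the 3 µg/kg liver against 400.2 to 682 CPM, and to 298 CPM in the 30 µg/kg liver against 533 to 829 CPM. Results that rest on these livers are given with and without them where the fit was repeated.

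At 30 µg/kg, 25 of the 45 markers were called higher than in vehicle livers and none lower, which is 55.6% higher beside 15.5% of all tested genes higher and 14.1% lower. At 10 µg/kg 12 markers were higher and none lower, beside 8.47% and 7.47% of all genes, and at 3 µg/kg 9 were higher and none lower, beside 4.34% and 3.2%. No marker was called at 1 µg/kg or below. The share of all genes called higher there was 1.24% at 1 µg/kg, and 0.321%, 0.0229%, 0.0344% and 0% at the doses 0.3, 0.1, 0.03 and 0.01 in turn. The share called lower was 0.515%, 0.143%, 0%, 0.0229% and 0% in the same order. At an unadjusted p under 0.05, 17 markers passed at 1 µg/kg, and 0, 0, 1 and 15 at the doses below it in the same order. Of all 17464 genes, 2270 passed at 1 µg/kg, and 1835, 900, 2042 and 1760 at the doses below it in that order. DESeq2 called Coro1a at 1 µg/kg, Marco at the lowest dose and 0 markers at the doses between. At 0.01 µg/kg, replicate 5 was the highest of its group for 39 of the 45 markers. The summed markers of the rest of that group were at 290 to 502 CPM, beside 285 to 432 CPM in vehicle livers. Neither the unadjusted count at 0.01 µg/kg nor the DESeq2 call of Marco was repeated without replicate 5. Of markers below vehicle, 1 passed an unadjusted p under 0.05 at each of 1, 3 and 10 µg/kg and 0 at 30 µg/kg, and DESeq2 called 1 lower, Cd9 at 3 µg/kg. The lowest dose at which a marker was called was 3 µg/kg for 9 markers, 10 µg/kg for 4 and 30 µg/kg for 12, and the other 20 were never called. The median log2 fold change of the 45 markers was 1.01, 0.84 and 1.10 at 3, 10 and 30 µg/kg, against 0.01, 0.02 and 0.02 over all tested genes.

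**Figure D1:**
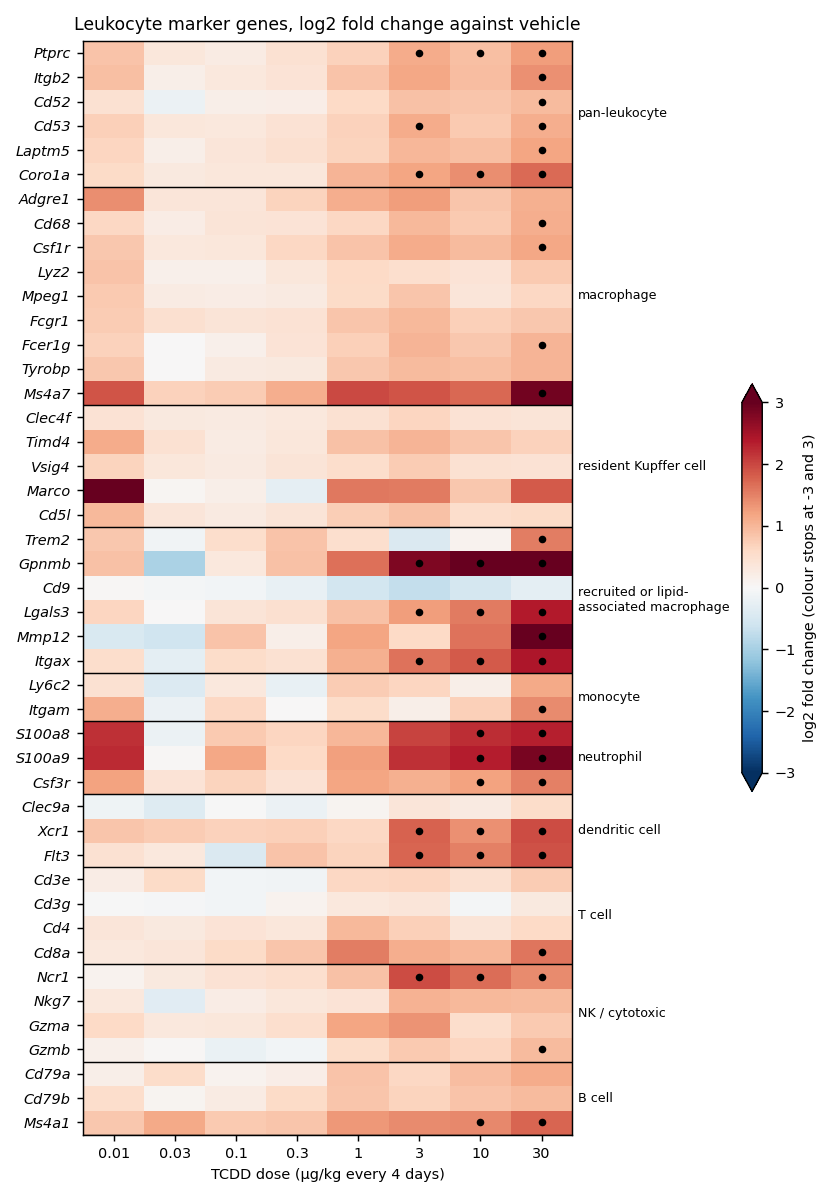
Log2 fold change against vehicle of the 45 markers (rows, in 10 classes) at 8 doses of TCDD in µg/kg every 4 days (columns), with colour limits at -3 and 3 and black dots where the adjusted p was under 0.05. Dots appear from 3 µg/kg on and number 25 at 30 µg/kg, and the 5 resident Kupffer markers have none.

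The number of calls changed with the livers that stood apart, and all 45 livers share the estimate of spread. Without replicate 5 at 0.01 µg/kg and replicate 1 at 3 µg/kg, 30 markers were called higher at 30 µg/kg, beside 15.8% of all genes. At the doses 10, 3 and 1 in turn 19, 9 and 3 markers were called, the 3 being Coro1a, Ms4a7 and Csf3r. The shares of all genes called higher there were 9.47%, 3.6% and 1.41%. Without replicate 4 at 30 µg/kg as well, 36 markers were called higher at that dose, beside 17.2% of all genes. That liver was singled out as the lowest of its group for 40 of these same 45 markers. Leaving it out therefore raises the group mean of those 40, so calls gained that way, here and below, are no separate support. The other 2 livers were also chosen by their values in these markers. Leaving them out can narrow the shared estimate of spread for these markers, so calls gained that way, here and below, are no separate support either. The 25 markers called with all livers were among the 30 and among the 36. With replicate 1 at 3 µg/kg alone left out, 3 markers (Gpnmb, Flt3 and Ncr1) remained of the 9 called at that dose, and without vehicle replicate 2 the count fell to 5 (Gpnmb, Itgax, Xcr1, Flt3 and Ncr1).

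With any 1 liver of the vehicle or 30 µg/kg group left out, 17 of the 25 markers stayed called at 30 µg/kg in all 10 refits. Of the others, Cd8a was lost without vehicle replicate 2 (adjusted p = 0.0601), Cd68 without replicate 2 or 3 at 30 µg/kg (up to 0.0718), Csf1r without vehicle replicate 2 or replicate 2 or 5 at 30 µg/kg (up to 0.0548) and Ncr1 without vehicle replicate 3 or 5 or replicate 1 at 30 µg/kg (up to 0.0710). Fcer1g and Gzmb stayed called in 3 of the 10 refits, Cd52 in 2 and Trem2 in 7, with adjusted p-values of up to 0.167, 0.125, 0.102 and 0.0809. Fcer1g, Gzmb and Cd52 also lost their calls when all genes with at least 1 read were tested.

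All 6 pan-leukocyte markers were higher at 30 µg/kg, beside 15.5% of all tested genes, with log2 fold changes from 0.95 to 1.71. Ptprc, the tyrosine phosphatase that marks all nucleated blood cells, was at 9.41, 5.98, 10.5, 8.11 and 12.4 CPM in vehicle livers and at 23.1, 25.6, 26.3, 12.5 and 22.7 CPM at 30 µg/kg. The groups did not overlap, but replicate 4 at 30 µg/kg exceeded the highest control by little. The log2 fold change of Ptprc was 1.25 ± 0.33 (SE, n = 5 livers per group, adjusted p = 0.00325), and it was 1.11 ± 0.33 at 3 µg/kg (adjusted p = 0.0297). The call at 3 µg/kg was lost without vehicle replicate 1, 2 or 4, or replicate 1 or 5 of that group. Coro1a, an actin-binding protein of leukocytes, had 2.69, 1.53, 2.22, 3.53 and 3.59 CPM in vehicle livers and 8.93, 9.04, 9.90, 4.68 and 12.0 CPM at 30 µg/kg. Every treated liver was above every control, with log2 fold changes of 1.17 ± 0.32 at the dose of 3 µg/kg (adjusted p = 0.0157) and 1.71 ± 0.32 at the highest dose (adjusted p = 5.11e-05). Without vehicle replicate 2 or replicate 1 at 3 µg/kg, Coro1a was not called at 3 µg/kg.

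Itgb2, the shared beta chain of the leukocyte integrins, had 3.47, 2.61, 2.59, 2.97 and 4.30 CPM in vehicle livers and 7.35, 10.3, 9.12, 3.45 and 11.3 CPM at 30 µg/kg. Its replicate 4 lay among the controls and the other treated livers above them, for a log2 fold change of 1.37 ± 0.42 (adjusted p = 0.0115). The tetraspanin Cd53 had 7.36, 5.79, 7.15, 5.69 and 10.1 CPM in vehicle livers and 12.3, 18.3, 17.0, 8.02 and 21.3 CPM at 30 µg/kg. It was higher by 1.08 ± 0.33 on the log2 scale (adjusted p = 0.0111), with replicate 4 again inside the control range. Laptm5, a lysosomal membrane protein of blood cells, went from 9.60 ± 1.69 to 21.8 ± 7.19 CPM (SD, n = 5), a log2 fold change of 1.18. The surface glycoprotein Cd52 went from 3.87 ± 1.06 to 7.46 ± 2.57 CPM (SD, n = 5), with an adjusted p of 0.0466. Exons of Cd52 and Crybg2 overlap on opposite strands, as do those of Coro1a and Bola2, so that reads there may have gone to either gene or been left out.

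Of the 9 markers that resident and recruited macrophages share, 4 were called higher at 30 µg/kg (Cd68, Csf1r, Fcer1g and Ms4a7) and none at 3 or 10 µg/kg. The shares of all tested genes called higher were 4.34%, 8.47% and 15.5% at 3, 10 and 30 µg/kg. At an unadjusted p under 0.05, 8 and 4 of the 9 passed at 3 and 10 µg/kg, beside 3640 and 5049 of all 17464 genes. DESeq2 called Cd68, Mpeg1 and Ms4a7 at 3 µg/kg and Ms4a7 at 10 µg/kg. Adgre1, an adhesion receptor used to stain mouse macrophages, had 8.99, 6.55, 8.50, 9.22 and 7.53 CPM in vehicle livers and 14.3, 24.5, 19.1, 7.52 and 19.8 CPM at 30 µg/kg. Only replicate 4 of the treated livers fell in the control range, yet the log2 fold change of 1.06 ± 0.46 did not pass the threshold (adjusted p = 0.0788). It passed once replicate 5 at 0.01 µg/kg and replicate 1 at 3 µg/kg were left out, with nearly the same log2 fold change of 1.05 (adjusted p = 0.00907). Cd68, a lysosomal glycoprotein of phagocytes, had 5.17, 3.69, 4.81, 4.64 and 6.47 CPM in vehicle livers and 9.33, 15.7, 13.7, 4.57 and 9.06 CPM at 30 µg/kg. Replicate 4 was the one treated liver inside the control range, and the log2 fold change was 1.08 ± 0.35 (adjusted p = 0.0178).

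Csf1r, the receptor for the growth factor on which macrophages depend, went from 25.1 ± 3.72 to 56.2 ± 18.9 CPM (SD, n = 5), a log2 fold change of 1.16. Its exons overlap those of Hmgxb3 on the opposite strand. Ms4a7, a membrane protein of macrophages, had the largest change of this class, from 0.268 ± 0.0443 to 2.06 ± 0.918 CPM (SD, n = 5). That was 2.89 ± 0.62 on the log2 scale (adjusted p = 0.000324), from only 3 to 5 reads per vehicle liver. The adaptor chain Fcer1g, through which Fc receptors signal, went from 3.80 ± 1.12 to 7.80 ± 3.82 CPM (SD, n = 5) at an adjusted p of 0.0495. The 4 others had log2 fold changes of 1.02 for the adaptor Tyrobp (adjusted p = 0.0529), 0.81 for the IgG receptor Fcgr1, 0.79 for the lysozyme gene Lyz2 and 0.61 for the pore-forming protein Mpeg1, none of them past the threshold. Without replicate 5 at 0.01 µg/kg and replicate 1 at 3 µg/kg, Tyrobp, Lyz2 and Mpeg1 passed it, with log2 fold changes of 1.01, 0.77 and 0.60 (adjusted p = 0.00687, 0.0381 and 0.0377), and without replicate 4 at 30 µg/kg as well Fcgr1 did, with 1.00 (adjusted p = 0.0215). Mean levels went from 6.70 ± 1.14 to 13.6 ± 4.98 CPM for Tyrobp and from 1.93 ± 0.378 to 3.39 ± 1.26 CPM for Fcgr1 (SD, n = 5). They went from 27.2 ± 7.44 to 47.2 ± 21.4 CPM for Lyz2 and from 58.3 ± 5.43 to 89.1 ± 24.6 CPM for Mpeg1 (SD, n = 5). Lyz2 has a close copy, Lyz1, and reads that fit both genes equally are not in the counts.

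None of the 5 resident Kupffer markers was called at any dose in the fit of all livers, and all 5 had positive log2 fold changes at 3, 10 and 30 µg/kg. Among all tested genes 15.5% were called higher and 14.1% lower at 30 µg/kg. At an unadjusted p under 0.05, 4, 0 and 1 of the 5 passed at 3, 10 and 30 µg/kg, and DESeq2 called 0 at these doses. Of all 17464 genes, 3640, 5049 and 6876 passed that unadjusted threshold at the same doses. Clec4f, a galactose-binding lectin found on Kupffer cells alone in the mouse, had 71.7, 55.01, 70.7, 65.7 and 89.2 CPM in vehicle livers and 71.2, 114, 121, 46.5 and 107 CPM at 30 µg/kg. The groups overlapped, since replicates 1 and 4 lay within or below the control range. The log2 fold change of Clec4f was 0.38 ± 0.30 (adjusted p = 0.359), with a 95% interval from -0.20 to 0.96. Over the 9 groups its mean was lowest in vehicle livers, at 70.4 CPM, and highest at 3 µg/kg, at 110.1 CPM, with 91.9 CPM at 30 µg/kg.

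Cd5l, a protein that macrophages secrete and that binds lipids, had 56.9, 47.8, 55.2, 56.1 and 68.8 CPM in vehicle livers and 72.6, 118, 102, 28.97 and 100.5 CPM at 30 µg/kg. At 30 µg/kg 4 livers were above all controls and replicate 4 was below them all, for a log2 fold change of 0.57 ± 0.42 (adjusted p = 0.329). Vsig4, a complement receptor, had 23.1, 15.5, 19.7, 21.7 and 26.0 CPM in vehicle livers and 22.5, 34.6, 37.6, 13.5 and 36.1 CPM at 30 µg/kg, so that it changed by 0.44 ± 0.36 on the log2 scale (adjusted p = 0.378). Timd4, which binds phosphatidylserine on dying cells and marks long-resident Kupffer cells, had 5.09, 4.01, 6.66, 4.46 and 7.99 CPM in vehicle livers and 7.75, 11.4, 11.8, 3.23 and 11.4 CPM at 30 µg/kg. Its groups overlapped as well, and the log2 fold change was 0.69 ± 0.43 (adjusted p = 0.235). The scavenger receptor Marco was the most variable of the class, with 2.90, 2.86, 1.79, 1.86 and 6.12 CPM in vehicle livers and 8.93, 16.3, 12.0, 2.01 and 17.4 CPM at 30 µg/kg. In replicate 5 at 0.01 µg/kg it reached 143.6 CPM. The log2 fold change of Marco at 30 µg/kg was 1.84 ± 0.81 (adjusted p = 0.0843) and 1.82 without that liver and replicate 1 at 3 µg/kg (adjusted p = 0.00362).

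The call for Kupffer markers also turned on which livers entered the fit. When just the vehicle livers and those of 1 dose were fitted, Clec4f, Timd4 and Vsig4 were called higher at 3 µg/kg, the same 3 and Cd5l at the next dose, and Marco alone at the highest. The share of all genes called in such fits was not counted. At 10 µg/kg the log2 fold changes in that fit were 0.43 for Clec4f (adjusted p = 0.0233), 0.83 for Timd4 (adjusted p = 0.00548), 0.45 for Vsig4 (adjusted p = 0.0284) and 0.51 for Cd5l (adjusted p = 0.0356). Leaving out all 3 livers that stood apart, Timd4 passed the threshold at 30 µg/kg with a log2 fold change of 0.90 (adjusted p = 0.0152), and so did Marco with 2.11 (adjusted p = 0.000451). Clec4f, Vsig4 and Cd5l had 0.55, 0.62 and 0.78 there, with adjusted p-values of 0.0788, 0.0709 and 0.0570. Leaving out any 1 liver of either group, or using any of the other settings, gave no Kupffer marker below vehicle at 30 µg/kg. Per kilobase of exon, Clec4f and Cd5l had the highest levels of all 45 markers in vehicle livers, at 28.5 and 28.0 CPM per kilobase.

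**Figure D2:**
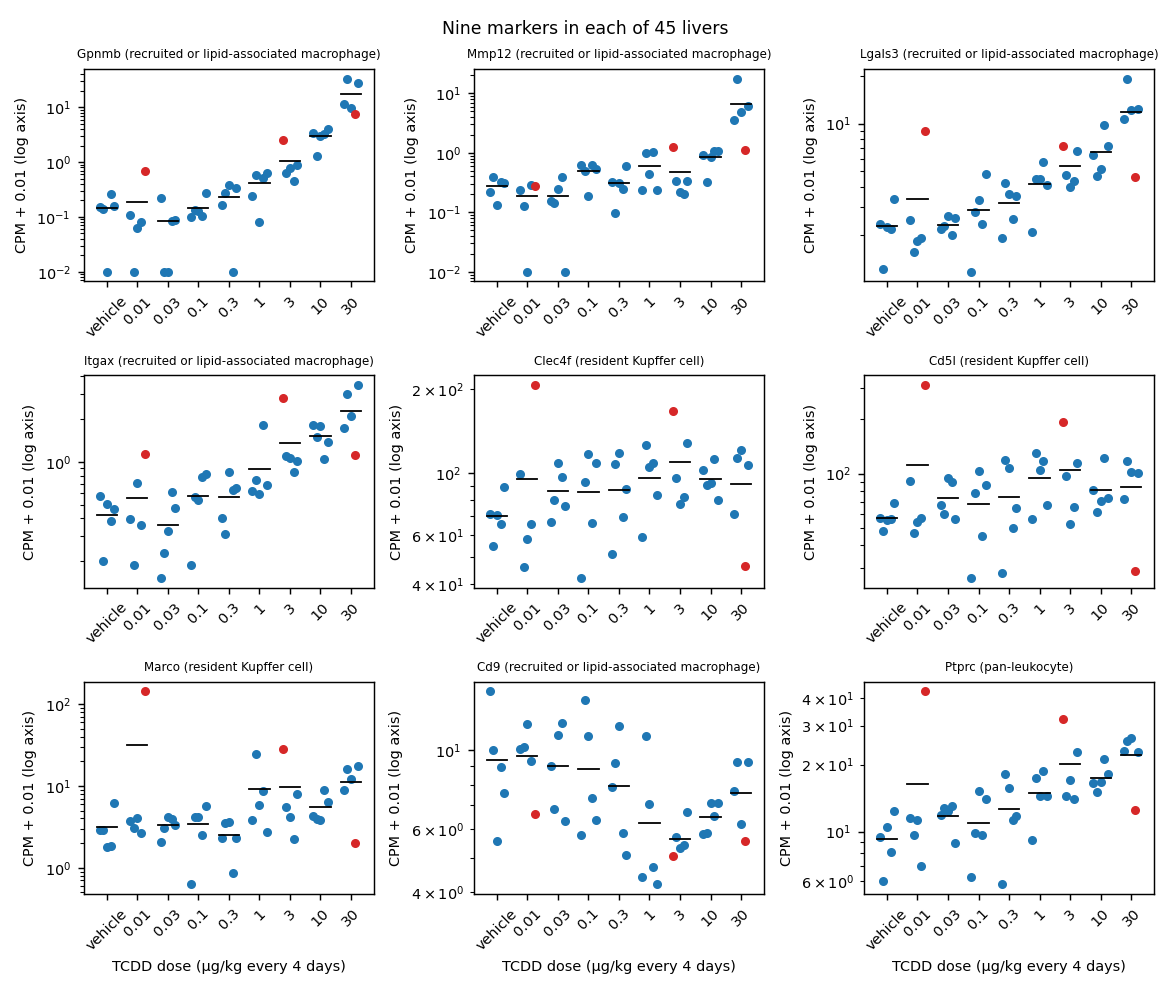
Level in each of the 45 livers (points, CPM plus 0.01 on a log axis) of 9 markers by TCDD dose in µg/kg every 4 days, with the group mean as a bar and the 3 livers that stood apart in red. Gpnmb climbs from a mean of 0.134 CPM in vehicle livers to 17.8 CPM at 30 µg/kg, whereas Clec4f stays between group means of 70.4 and 110.1 CPM.

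Among the 6 markers of recruited and lipid-associated macrophages 5 were called higher at 30 µg/kg, beside 15.5% of all tested genes. The median log2 fold change was 2.39 over the 6, against 0.57 over the Kupffer markers. Gpnmb, a transmembrane glycoprotein of lipid-laden macrophages, had the largest change of all 45 markers. It had 0.142, 0.127, 0, 0.248 and 0.152 CPM in vehicle livers, which is 0 to 4 reads each, and 11.4, 32.9, 9.72, 7.63 and 27.6 CPM at 30 µg/kg, from 137 to 575 reads. The groups lay far apart even in replicate 4. The log2 fold change of Gpnmb was 6.99 ± 0.61 (adjusted p = 3.77e-12) and stayed between 6.64 and 7.32 with any 1 liver of either group left out. At 10 and 3 µg/kg it was 4.43 ± 0.64 (adjusted p = 1.66e-06) and 2.79 ± 0.72 (adjusted p = 0.0107). Single livers had 1.26 to 4.07 CPM of Gpnmb at 10 µg/kg and 0.451 to 2.48 CPM at 3 µg/kg, above every vehicle liver in both groups.

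Mmp12, the macrophage elastase that cleaves elastin and other matrix proteins, had 0.212, 0.382, 0.123, 0.309 and 0.303 CPM in vehicle livers and 3.52, 17.4, 4.84, 1.11 and 6.17 CPM at 30 µg/kg. All treated livers were above the controls, though they differed widely from each other, and some exon bases of Mmp12 overlap Mmp1b on the opposite strand. The log2 fold change was 4.59 ± 0.57 (adjusted p = 3.18e-08), and 1.63 ± 0.63 at 10 µg/kg, where it did not pass (adjusted p = 0.0695). Lgals3 is a secreted galactoside-binding lectin that cells other than leukocytes also express. It had 2.33, 1.21, 2.22, 2.17 and 3.34 CPM in vehicle livers and 10.6, 19.1, 12.2, 4.62 and 12.3 CPM at 30 µg/kg. These groups did not overlap either, and the log2 fold changes at 3, 10 and 30 µg/kg were 1.24, 1.55 and 2.37, each ± 0.38 (adjusted p = 0.034, 0.00303 and 4.32e-06). The call of Lgals3 at 3 µg/kg was lost without vehicle replicate 1, 2, 3 or 4, or replicate 1 or 5 of that group. Itgax, an integrin alpha chain of dendritic cells and of activated macrophages, had 0.566, 0.191, 0.493, 0.371 and 0.455 CPM in vehicle livers and 1.71, 2.98, 2.09, 1.11 and 3.45 CPM at 30 µg/kg. Every treated liver was above every control, with a log2 fold change of 2.42 ± 0.41 (adjusted p = 1.41e-05) after 1.64 and 1.83 at 3 and 10 µg/kg, both ± 0.42 (adjusted p = 0.011 and 0.00152). Without replicate 1 at 3 µg/kg, Itgax was not called at 3 µg/kg.

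Trem2, a receptor for lipids and dying cells, was rare, with 0.637, 0.0636, 0.185, 0.186 and 0.303 CPM in vehicle livers and 0.541, 1.37, 0.672, 0.111 and 1.44 CPM at 30 µg/kg. The groups overlapped, since replicate 4 at 30 µg/kg was within the control range and replicate 1 of the controls exceeded some treated livers. It was called higher by 1.55 ± 0.52 on the log2 scale (adjusted p = 0.0198), from 1 to 9 reads per vehicle liver. The call was lost with vehicle replicate 2, or replicate 2 or 5 at 30 µg/kg, left out, and in the fit of the 2 groups alone (adjusted p = 0.0591). Cd9 moved apart from the rest of its class. The tetraspanin, which cells other than leukocytes also carry, had 14.6, 9.98, 5.55, 8.97 and 7.58 CPM in vehicle livers and 7.66, 9.22, 6.19, 5.57 and 9.22 CPM at 30 µg/kg. The change of -0.30 ± 0.25 on the log2 scale did not pass (adjusted p = 0.395). At 3 µg/kg the value was -0.72 ± 0.25 (adjusted p = 0.0745), and it passed the threshold as a decrease in the fit of the 2 groups alone and in DESeq2.

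The bases before the start sites of some of these genes are shown because the resident and the recruited markers differed in their values and TCDD's receptor is known to bind a short DNA element, the dioxin response element, with the core GCGTG. The core of the site of PU.1, a factor that myeloid cells depend on, was taken as GAGGAA. Windows of 250 bases before the RefSeq start were searched on both strands in GRCm38.p6, and of each window the bases that precede an annotated exon inside it are printed, on the gene's strand, with capitals for a core. The Lgals3 window lies inside the gene as GENCODE annotates it, since 1 of its transcripts starts upstream. They lie at chr6:83656188-83656366 for Clec4f (ENSMUSG00000014542, minus strand) and, on the plus strand, at chr3:87357631-87357880 for Cd5l (ENSMUSG00000015854), chr6:49036268-49036517 for Gpnmb (ENSMUSG00000029816), chr14:47373610-47373812 for Lgals3 (ENSMUSG00000050335) and chr7:128129300-128129546 for Itgax (ENSMUSG00000030789).
Clec4f: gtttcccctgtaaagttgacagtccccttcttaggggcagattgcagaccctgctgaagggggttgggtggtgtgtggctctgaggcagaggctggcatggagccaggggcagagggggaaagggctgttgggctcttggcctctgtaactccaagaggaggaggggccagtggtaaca
Cd5l: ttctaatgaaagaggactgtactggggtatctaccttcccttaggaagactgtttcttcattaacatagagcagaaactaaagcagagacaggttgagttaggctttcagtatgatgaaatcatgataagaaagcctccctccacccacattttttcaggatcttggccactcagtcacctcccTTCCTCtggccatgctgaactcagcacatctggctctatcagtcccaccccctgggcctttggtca
Gpnmb: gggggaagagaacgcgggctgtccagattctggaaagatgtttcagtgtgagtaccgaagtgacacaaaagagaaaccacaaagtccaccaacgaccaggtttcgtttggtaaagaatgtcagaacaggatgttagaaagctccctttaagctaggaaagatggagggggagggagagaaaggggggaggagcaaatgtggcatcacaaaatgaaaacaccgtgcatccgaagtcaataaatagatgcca
Lgals3: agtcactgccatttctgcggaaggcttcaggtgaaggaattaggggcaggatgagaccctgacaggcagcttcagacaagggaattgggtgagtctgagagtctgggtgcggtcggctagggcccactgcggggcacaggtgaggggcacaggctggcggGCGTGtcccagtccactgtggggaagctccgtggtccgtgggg
Itgax: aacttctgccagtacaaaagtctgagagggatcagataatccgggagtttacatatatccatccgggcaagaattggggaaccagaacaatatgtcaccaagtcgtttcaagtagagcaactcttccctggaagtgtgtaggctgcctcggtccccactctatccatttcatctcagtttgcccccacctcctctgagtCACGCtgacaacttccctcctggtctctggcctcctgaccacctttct
The Lgals3 and Itgax sequences each hold 1 dioxin response element core, 90 and 51 bases before the RefSeq start, and Cd5l holds 1 PU.1 core, 66 bases before it. Neither core is in these bases of Gpnmb, the marker with the largest change, or of Clec4f. RefSeq promoters were found for 37 of the 45 markers, 43 in all. Of the 43, 6 held the dioxin response element core, in Cd79a, Fcer1g, Itgax, Lgals3, Trem2 and Xcr1, beside 28.2% of all 32851 promoters. The PU.1 core was in 18 of the 43, beside 23.3% of all promoters. The 2 cores can overlap by their end base only, and a match describes the letters and no more.

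The summed Kupffer markers were set against the summed pan-leukocyte markers of the same liver, as a description with no test. The ratio was 4.00, 4.85, 4.33, 4.57 and 4.39 in vehicle livers and 2.34, 2.94, 3.03, 2.21 and 2.59 at 30 µg/kg, and it ran from 2.99 to 3.79 and from 2.82 to 3.61 at 3 and 10 µg/kg. From 3 µg/kg on no treated liver reached the vehicle range, and up to 1 µg/kg the ranges overlapped it. Of the livers that stood apart in level, replicate 1 at 3 µg/kg had a ratio of 3.57 and lay within its group, replicate 4 at 30 µg/kg had the lowest of its group and replicate 5 at 0.01 µg/kg the highest of all livers, 5.53. When each gene had equal weight, as the mean log2 CPM of Kupffer markers minus that of pan-leukocyte markers with 0.1 CPM added, the difference was 1.52 to 1.84 in vehicle livers and 0.74 to 1.37 at 30 µg/kg. On this scale the livers at 3 and 10 µg/kg overlapped the vehicle range, at 1.27 to 1.71 and 1.24 to 1.55. The Kupffer sum itself was 125 to 198 CPM in vehicle livers and 94.2 to 294 CPM at 30 µg/kg, and the pan-leukocyte sum 25.8 to 45.2 and 42.6 to 105 CPM.

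Of the recruited and lipid-associated sum, Cd9 made up the larger part in vehicle livers. With Cd9 the sum was 0.463, 0.463, 0.240, 0.374 and 0.268 of the pan-leukocyte sum in vehicle livers and 0.454, 0.829, 0.381, 0.474 and 0.572 at 30 µg/kg, and the ranges overlapped. At 3 µg/kg it was 0.147 to 0.235, below every vehicle liver. Without Cd9, a split chosen after its values were seen, the ratio was 0.0764 to 0.101 in vehicle livers and 0.109 to 0.124, 0.135 to 0.202 and 0.315 to 0.737 at 3, 10 and 30 µg/kg. Every liver at 3 µg/kg and above then exceeded every vehicle liver. Lgals3, which other cells also express, stayed in the sum. With Gpnmb taken out too, the ratio still lay at 0.164 to 0.408 at 30 µg/kg against 0.0714 to 0.0973 in vehicle livers, while at 3 µg/kg it overlapped them, at 0.0894 to 0.114.

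**Figure D3:**
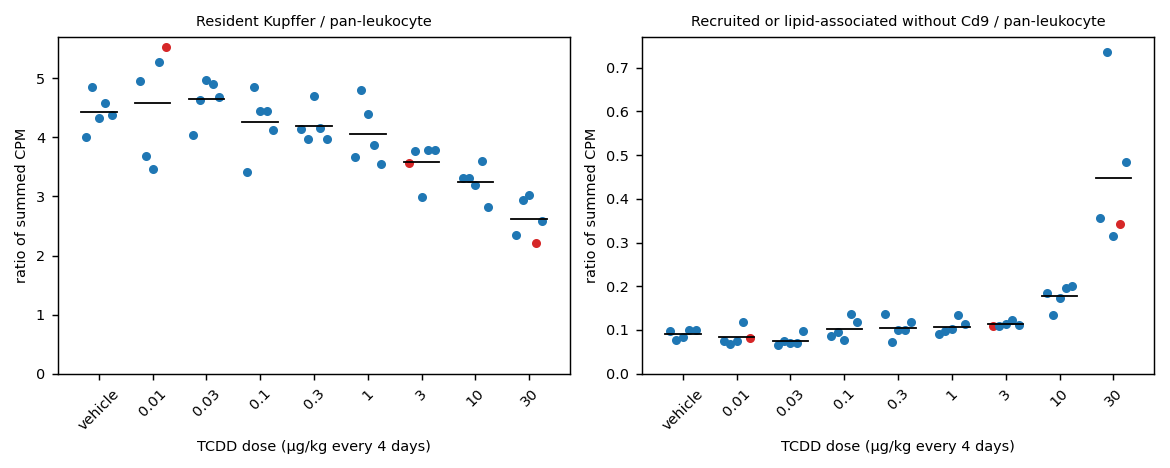
Ratio in each liver (points, bar at the group mean) of the summed CPM of 5 Kupffer markers (left) and of 5 recruited or lipid-associated markers without Cd9 (right) to the summed CPM of 6 pan-leukocyte markers, by TCDD dose in µg/kg every 4 days, with the 3 livers that stood apart in red. The left ratio is 2.21 to 3.03 at 30 µg/kg against 4.00 to 4.85 in vehicle livers, and the right one 0.315 to 0.737 against 0.0764 to 0.101.

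Markers of circulating myeloid cells were low throughout. Itgam, an integrin alpha chain of monocytes, neutrophils and macrophages, had 0.566, 0.827, 0.801, 0.371 and 0.960 CPM in vehicle livers and 1.44, 2.12, 2.51, 0.947 and 2.56 CPM at 30 µg/kg. Replicate 4 lay inside the control range, so that the groups overlapped, and the log2 fold change was 1.42 ± 0.45 (adjusted p = 0.0147). Ly6c2, a surface antigen of inflammatory monocytes, had 0.637, 0.0636, 0.185, 0.186 and 0.202 CPM in vehicle livers and 0.541, 0.515, 0.424, 0.223 and 1.20 CPM at 30 µg/kg. The groups overlapped because of replicate 1 of the controls, and the log2 fold change of 1.15 ± 0.53 did not pass (adjusted p = 0.0967). It was 1.34 without the 3 livers that stood apart, which passed (adjusted p = 0.0398). Ly6c2 has a near copy in Ly6c1, whose shared reads the counts leave out.

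The 3 neutrophil markers were called higher at 10 and 30 µg/kg, beside 8.47% and 15.5% of all tested genes. At 10 µg/kg all 3 calls were lost without vehicle replicate 2, 3 or 4 or replicate 3 or 4 of that group. S100a8, a subunit of the calcium-binding protein calprotectin, had 0.425, 0.191, 0.0616, 0.433 and 0.455 CPM in vehicle livers and 1.35, 2.63, 1.95, 0.780 and 1.28 CPM at 30 µg/kg, higher by 2.33 ± 0.76 on the log2 scale (adjusted p = 0.0170). S100a9, its partner subunit, had 0.566, 0.254, 0.247, 0.248 and 0.505 CPM in vehicle livers and 2.70, 3.61, 2.51, 0.947 and 3.53 CPM at 30 µg/kg, higher by 2.84 ± 0.76 on the log2 scale (adjusted p = 0.00373). For both, every treated liver was above every control. The receptor Csf3r, through which granulocyte colony-stimulating factor acts, went from 0.786 ± 0.234 to 2.30 ± 0.774 CPM (SD, n = 5), or 1.52 on the log2 scale. The 3 neutrophil markers summed to 0.890 to 1.98 CPM in vehicle livers and 3.18 to 9.56 CPM at 30 µg/kg, while replicate 5 of the lowest dose reached 16.3 CPM and replicate 1 of the 3 µg/kg group 12.3 CPM.

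Of the 3 dendritic cell markers, 2 were called higher from 3 µg/kg on, beside 4.34%, 8.47% and 15.5% of all tested genes at 3, 10 and 30 µg/kg. At 10 µg/kg the call of Xcr1 was lost in 9 of the 10 refits with 1 liver left out, and with the filter of at least 1 read (adjusted p = 0.0658), whereas that of Flt3 was not lost in any of them. At 3 µg/kg the call of Xcr1 was lost without vehicle replicate 3 or replicate 1 of the 3 µg/kg group. Xcr1, a chemokine receptor of cross-presenting dendritic cells, had 0.283, 0.254, 0, 0.309 and 0.404 CPM in vehicle livers and 1.17, 1.09, 0.990, 1.17 and 0.561 CPM at 30 µg/kg. Flt3, the growth factor receptor of dendritic cell precursors, had 0.283, 0.254, 0.247, 0.371 and 0.152 CPM in vehicle livers and 1.44, 1.03, 0.778, 0.947 and 0.641 CPM at 30 µg/kg. Neither gene's groups overlapped, and here replicate 5 rather than 4 was the lowest treated liver. The log2 fold changes of Xcr1 were 1.76 ± 0.48, 1.37 ± 0.49 and 1.97 ± 0.48 at 3, 10 and 30 µg/kg (adjusted p = 0.0158, 0.0484 and 0.00138), and those of Flt3 1.74 ± 0.40, 1.50 ± 0.41 and 1.90 ± 0.41 (adjusted p = 0.0043, 0.00878 and 0.000342). Clec9a, a receptor for dead cells on the same kind of dendritic cell, had 3.89, 3.94, 4.31, 2.17 and 5.61 CPM in vehicle livers and 5.54, 6.12, 6.37, 4.74 and 6.73 CPM at 30 µg/kg. The groups overlapped, and the log2 fold change of 0.56 ± 0.24 did not pass (adjusted p = 0.0741), whereas 0.63 without the 3 livers that stood apart did (adjusted p = 0.0338). Its exons overlap those of Clec1b on the same strand.

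**Figure D4:**
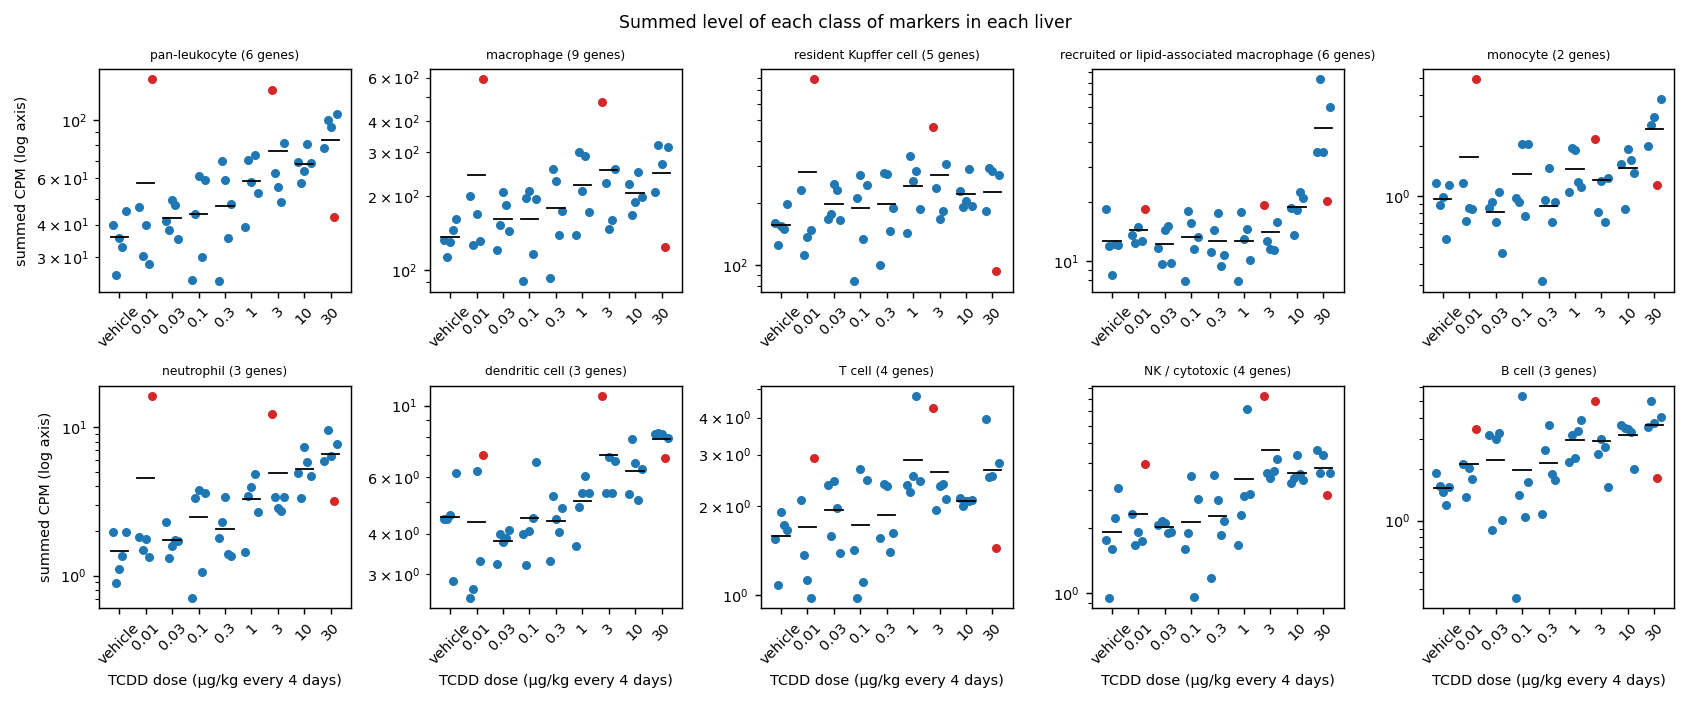
Summed CPM of each of the 10 marker classes in every liver (points, log axis, bar at the group mean) by TCDD dose in µg/kg every 4 days, with the 3 livers that stood apart in red. Replicate 5 at 0.01 µg/kg is far above its group in the pan-leukocyte, macrophage, Kupffer and neutrophil sums, at 142, 590, 788 and 16.3 CPM.

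Lymphocyte markers had few reads, at most 29 in any liver of these 2 groups for Cd3e, Cd3g, Cd4 and Cd8a. At 30 µg/kg 4 of the 11 T, NK and B cell markers were called higher, beside 15.5% of all tested genes. They were 1 of 4 T cell, 2 of 4 NK and cytotoxic and 1 of 3 B cell markers. Cd8a, the co-receptor of cytotoxic T cells, was the 1 T cell marker called, from 0.214 ± 0.166 to 0.684 ± 0.252 CPM (SD, n = 5), with a log2 fold change of 1.61 (adjusted p = 0.0187). Cd3e, a chain of the T cell receptor complex, had 0.425, 0.191, 0.431, 0.248 and 0.404 CPM in vehicle livers and 0.902, 0.458, 0.637, 0.501 and 0.321 CPM at 30 µg/kg (log2 fold change 0.76 ± 0.41, adjusted p = 0.169). Its partner Cd3g had 0.354, 0.382, 0.801, 0.557 and 0.556 CPM in vehicle livers and 1.31, 0.458, 0.637, 0.167 and 0.641 CPM at 30 µg/kg (log2 fold change 0.29 ± 0.45, adjusted p = 0.673). Both overlapped between the groups. The helper T cell co-receptor Cd4, which macrophages also carry at low levels, had 0.506 ± 0.0641 and 0.768 ± 0.185 CPM (SD, n = 5), a log2 fold change of 0.59 that was not called.

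Ncr1, an activating receptor of NK cells, was called at 3, 10 and 30 µg/kg. It had 0.212, 0.191, 0.0616, 0.433 and 0.152 CPM in vehicle livers and 0.857, 0.687, 0.495, 0.501 and 0.240 CPM at 30 µg/kg, so that replicate 5 lay in the control range. Its log2 fold changes at 3, 10 and 30 µg/kg were 1.95 ± 0.46, 1.67 ± 0.47 and 1.43 ± 0.48 (adjusted p = 0.00455, 0.00987 and 0.0202). Nkg7, a granule protein of NK and cytotoxic T cells, had 0.708, 0.254, 0.431, 0.371 and 0.910 CPM in vehicle livers and 0.992, 0.744, 1.52, 0.669 and 1.28 CPM at 30 µg/kg, with overlapping groups and an adjusted p of 0.0967. Without the 3 livers that stood apart Nkg7 passed, at 1.07 on the log2 scale (adjusted p = 0.0377). Of the granzymes, the proteases that these cells inject into targets, Gzmb was called, from 0.630 ± 0.374 to 1.25 ± 0.296 CPM (SD, n = 5, log2 fold change 0.95, adjusted p = 0.0437). Gzma had 0.552 ± 0.286 and 0.960 ± 0.158 CPM (SD, n = 5) and was not (log2 fold change 0.78, adjusted p = 0.24).

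Of the B cell markers Ms4a1, the target of B cell-depleting antibodies, was called, from 0.343 ± 0.208 to 1.15 ± 0.294 CPM (SD, n = 5, log2 fold change 1.74, adjusted p = 0.00839). Cd79a, a signalling chain of the B cell receptor, had 0.495, 0.509, 0.185, 0.371 and 0.253 CPM in vehicle livers and 0.451, 1.20, 0.672, 0.390 and 1.28 CPM at 30 µg/kg. The second chain, Cd79b, had 0.920, 0.572, 0.986, 0.866 and 0.910 CPM in vehicle livers and 1.94, 2.23, 1.80, 0.669 and 1.60 CPM at 30 µg/kg. Replicate 4 lay within the control range for both, and Cd79a also overlapped in replicate 1. Their log2 fold changes of 1.10 ± 0.51 and 0.95 ± 0.44 did not pass (adjusted p = 0.0960 and 0.0993). Without the 3 livers that stood apart Cd79b passed, at 1.15 on the log2 scale (adjusted p = 0.0333).

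**Figure D5:**
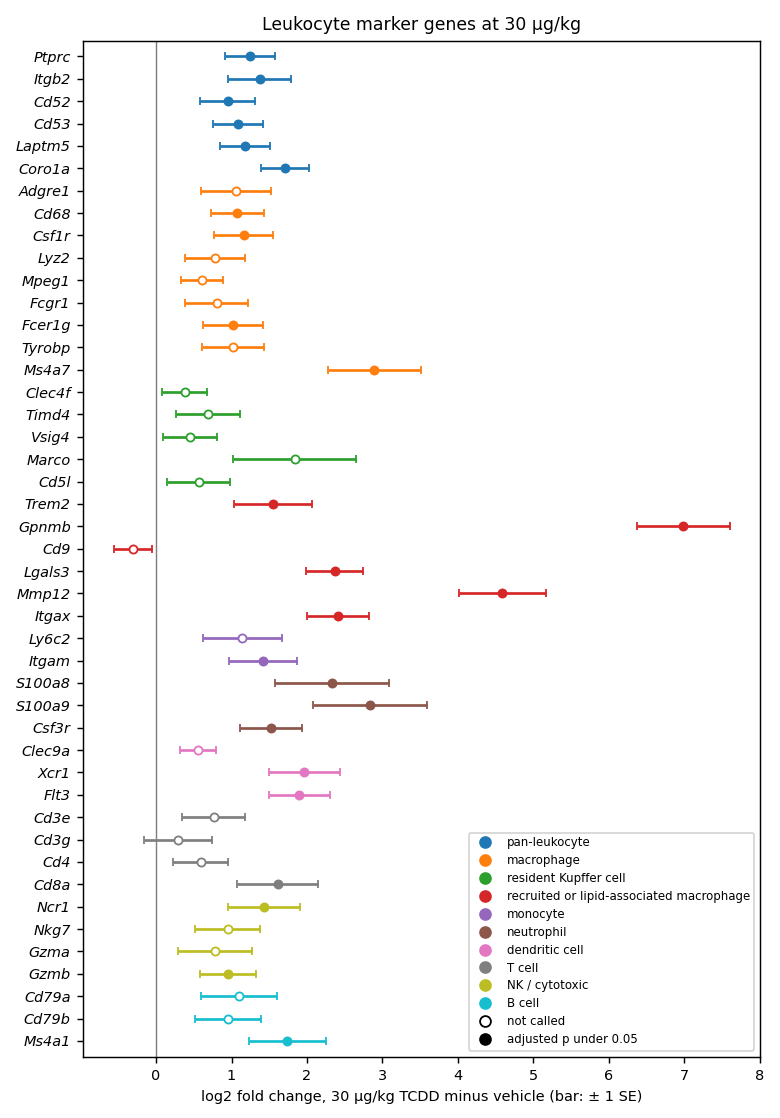
Log2 fold change at 30 µg/kg against vehicle of the 45 markers, with bars of 1 SE, colours for the class and filled points where the adjusted p was under 0.05. All points but Cd9 (-0.30) lie above 0, with Gpnmb at 6.99 and Mmp12 at 4.59 farthest to the right and the 5 Kupffer markers not filled.

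Further genes of the same cell types, from lists that hold none of the 45, moved as follows at 30 µg/kg. For every list that follows, the shares of all tested genes at that dose were 15.5% higher and 14.1% lower. The counts of other Kupffer, neutrophil and B cell genes lie near these shares and say little about those genes. Of 10 other pan-leukocyte genes 6 were called higher and 0 lower, led by Cytip, a lymphocyte adhesion regulator (log2 fold change 2.11 ± 0.28), Vav1, an exchange factor of blood cells (1.25 ± 0.37), and Cd48 (1.20 ± 0.37). Of 12 other macrophage genes 9 were higher and 0 lower, led by Cybb, a subunit of the phagocyte oxidase (1.33 ± 0.36), the transcription factor Irf8 (1.24 ± 0.24) and the lysosomal protease Ctss (1.18 ± 0.34). Of 7 other Kupffer genes, whose median log2 fold change was 0.56, 1 was higher, Il18bp (0.77 ± 0.27), and 2 were lower. The 2 were Slc40a1, the iron exporter ferroportin, which fell by 0.63 ± 0.15 on the log2 scale (adjusted p = 0.00163), and Nr1h3, a sterol-sensing nuclear receptor, which fell by 0.44 ± 0.09 (adjusted p = 0.000179). In vehicle livers these 2 genes were at 160.6 to 241 and 99.98 to 117 CPM. Hepatocytes and other liver cells also express them, and which cells the decreases came from was not tested. The summed list of other Kupffer genes was at 306 to 382 CPM in vehicle livers and 205 to 297 CPM at 30 µg/kg, without overlap. Of 9 other recruited and lipid-associated genes 6 were higher and 0 lower, led by the fungal-sugar receptors Clec7a (2.07 ± 0.37) and Clec4n (1.91 ± 0.40) and by Clec4d, with 3 reads in all in vehicle livers and 32 at 30 µg/kg.

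Neutrophil genes other than the 3 above had 2 of 9 tested called higher and 0 lower, Mmp8, a granule collagenase, with 3 reads in all in vehicle livers and 90 at 30 µg/kg, and the chemokine receptor Cxcr2, with 3 and 35. Among 8 other dendritic cell genes 4 were higher, with Ccr7, a receptor that guides migration to lymph nodes (2.11 ± 0.43), Itgae (1.63 ± 0.45) and Cd209a (1.15 ± 0.41) first. Of 12 other T cell genes 4 were higher, among them Foxp3, the factor of regulatory T cells, with 1 read in vehicle livers and 16 at 30 µg/kg, and Cd6 (1.75 ± 0.64). The exons of Foxp3 overlap those of Flicr on the same strand and of Ppp1r3f and Ccdc22 on the opposite strand. Of 7 other NK and cytotoxic genes tested 5 were higher, with the transcription factor Eomes (1 read and 12), the pore-forming Prf1 (2.34 ± 0.65) and the transcription factor Tbx21 (2.26 ± 0.56) first. Of 10 other B and plasma cell genes 2 were higher, among them Pou2af1 (1.89 ± 0.49), and 1 was lower, the plasma cell chaperone Mzb1, which fell by 1.26 ± 0.48 on the log2 scale (adjusted p = 0.0432).

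Of 6 genes of mast cells, basophils and eosinophils 1 passed the read filter, Siglecf, a lectin of eosinophils. It had a total of 2 reads, both in 1 vehicle liver, and 19 to 46 reads in each liver at 30 µg/kg (0 to 0.123 and 1.06 to 2.18 CPM, adjusted p = 3.2e-09). Of 5 growth factor and survival genes tested 4 were higher. They include Csf3, the growth factor of neutrophils, without a read in any vehicle liver and with 4 to 14 reads in each at 30 µg/kg, where the mean of 0.321 CPM was at least 8.78-fold higher than the 0.0366 CPM that 3 reads over the vehicle group would give. They also include the receptor chains Csf2ra (1.24 ± 0.31) and Csf2rb (0.96 ± 0.25).

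Genes of other cells in the tissue moved as well at 30 µg/kg, and their part in the leukocyte values was not tested. Of 7 red blood cell genes 6 were higher, with Hbb-bt at 1.12 ± 0.30, Hba-a2 at 0.92 ± 0.31, and Slc4a1 with 2 reads in all in vehicle livers and 19 at 30 µg/kg. The summed red blood cell genes were at 68.9 to 86.0 CPM in vehicle livers and 86.8 to 184 CPM at 30 µg/kg. Replicate 4, low in leukocyte markers, was also the lowest there, and replicate 5 at 0.01 µg/kg was the highest of its group at 167 CPM against 64.3 to 88.7 CPM. Replicate 1 at 3 µg/kg, in contrast, had the lowest sum of its group, 75.6 CPM against 85.7 to 101 CPM. Of 6 endothelial genes 4 were higher, led by Pecam1 (0.99 ± 0.18), Fcgr2b (0.77 ± 0.15) and Clec4g (0.63 ± 0.17), and the summed list was at 145 to 188 CPM in vehicle livers and 179 to 280 CPM at 30 µg/kg. Of 6 stellate cell genes 3 were higher, Col1a1 (2.41 ± 0.33), Reln (1.71 ± 0.15) and Dcn (0.48 ± 0.14), with sums of 232 to 315 and 454 to 583 CPM. Of 7 hepatocyte genes 3 were lower, with Apoa1 down by 1.67, Cps1 by 0.99 and Ttr by 0.34 on the log2 scale, and sums of 111530 to 147830 and 103210 to 154870 CPM, which overlapped. Of 5 bile duct genes 0 were called, at sums of 52.1 to 77.5 and 52.98 to 70.2 CPM. Replicate 4 at 30 µg/kg was the lowest of its group in the endothelial, stellate and bile duct sums too (179, 454 and 52.98 CPM). In the hepatocyte sum, at 111660 CPM, it was not. Replicate 5 at 0.01 µg/kg was the highest of its group in the endothelial and stellate sums (171 and 334 CPM). So was replicate 1 at 3 µg/kg (215 and 420 CPM).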

How the data were processed

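Liver RNA of 45 mice was sequenced as single reads of 50 bases. The deposited files hold raw read counts per Ensembl gene, which the authors made by aligning trimmed reads to GRCm38 with TopHat 1.4.1 and counting uniquely aligned reads on exons with HTSeq 0.6.1, after quality checks with FastQC 0.11.2 and use of SAMtools 0.1.19. The strand setting is not given in the sources used here. Their variance-stabilized DESeq values were not used here. The 5 lines of each file that name no gene were left out of library sizes. Of uniquely aligned reads 10.7% to 18.4% were off genes or ambiguous, and alignments of reads that match more than 1 place, which no gene received, made up 36.7% to 55.2% of each file's total. Samples were grouped by the dose in their labels, replicate numbers follow the order of deposit and pair nothing, and no 2 files were identical.

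The main fit was edgeR 4.0.16 (R 4.3.3) with TMM scaling and the quasi-likelihood test over all 45 livers, with 1 coefficient per group, on the 17464 genes with more than 4 reads in any sample. P-values were adjusted within a dose by the Benjamini-Hochberg method over all 17464 genes, and a marker was called at an adjusted p under 0.05. The SE of a log2 fold change was its size divided by the square root of F. Between 11767284 and 56509899 reads were counted on genes per liver. The fit was tested on counts simulated for the 30 µg/kg comparison over the 17464 genes. It recovered 86% of changes of 1 and 99% of changes of 2 on the log2 scale, with 8 false calls. The changed genes were drawn only from those well above the read filter, and many of the rarer markers lie below that level. The simulated counts also held no livers that stood apart over many genes. The 2 shares therefore say nothing of recovery for the rarer markers. CPM for class sums use the TMM library sizes. Promoters come from RefSeq, and exon positions and overlaps from GENCODE M21, both on GRCm38.

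All 45 markers are named. Values of every vehicle and 30 µg/kg liver are given for the first 2 markers of each class, for all Kupffer and all recruited or lipid-associated markers and for markers called lower or called at 3 µg/kg or below, and means for the others. Of the 17 further lists, with 133 genes in all, the 3 called genes with the largest changes are named, except that a few are not reported here, nor is the list of other monocyte genes. The markers and lists were chosen with earlier results of these data known. Alternatives were DESeq2 size factors, library size alone, other read filters, a fit of 2 groups alone, DESeq2 1.42.0, a fold of at least 2 and leaving out each liver of the compared groups. Leaving out 2 or 3 livers that stood apart was chosen after seeing the data.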

Additional observations from a re-analysis of the deposited data

Results flagged for a closer look

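A liver was taken to lie far from its group when its gap to the nearest of the others, over the whole range of the group, was above the 95% critical value of Dixon's test for 5 livers. Of 189 groups tested 21 held such a liver, where chance gives about 1 in 20 for independent groups of normal values. The groups tested share livers and markers and hold untransformed values, so the 2 rates cannot be compared directly. Replicate 5 at 0.01 µg/kg lay above the rest of its group in the summed pan-leukocyte markers (142.34 CPM against 28.2 to 46.7 CPM), the macrophage markers (589.88 CPM against 126 to 199 CPM) and the Kupffer markers (787.73 CPM against 112 to 231 CPM). It was also far above in the monocyte markers (4.9269 CPM against 0.716 to 1.20 CPM), the neutrophil markers (16.347 CPM against 1.33 to 1.82 CPM) and the NK and cytotoxic markers (3.9666 CPM against 1.67 to 2.34 CPM). Replicate 1 at 3 µg/kg was above its group in neutrophil (12.277 CPM against 2.71 to 3.41 CPM), T cell (4.3114 CPM against 1.95 to 2.38 CPM) and NK and cytotoxic markers (8.2574 CPM against 3.43 to 4.18 CPM). Replicate 4 at 30 µg/kg was below its group in dendritic cell markers (6.8529 CPM against 7.93 to 8.24 CPM) and in Ptprc (12.48 CPM against 22.7 to 26.3 CPM).

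Replicate 4 at 1 µg/kg was above its group in T cell markers (4.7513 CPM against 2.25 to 2.54 CPM) and in NK and cytotoxic markers (7.1912 CPM against 1.68 to 2.90 CPM). Replicate 3 at 10 µg/kg was above its group in NK and cytotoxic markers (4.3736 CPM against 3.25 to 3.57 CPM), and replicate 5 of that group was below it in B cell markers (2.0003 CPM against 3.31 to 3.64 CPM). Replicate 3 at 0.1 µg/kg was above its group in B cell markers (5.373 CPM against 0.356 to 1.69 CPM). Among vehicle livers, replicate 5 was high in Marco (6.1157 CPM against 1.79 to 2.90 CPM), replicate 1 was high in Ly6c2 (0.63681 CPM against 0.0636 to 0.202 CPM) and replicate 2 was low in Cd79b (0.57234 CPM against 0.866 to 0.986 CPM). The ratio of the Kupffer to the pan-leukocyte sum was high in replicate 3 at 0.3 µg/kg (4.6995 against 3.97 to 4.16) and low in replicate 3 at 3 µg/kg (2.9943 against 3.57 to 3.79). The cause of none of these was tested.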

How the results depend on the processing

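At 30 µg/kg between 22 and 36 markers were called higher under the alternatives, against 25, and 19 to 31 with any 1 liver of the 2 groups left out. Of the 25 called, 17 stayed called with every such liver left out in turn. Library size alone called 34 and turned the direction of no marker. The median log2 fold change of all genes was then 0.23, against 0.02 in the main fit. Fitting only the 2 groups compared called 7, 22 and 31 markers higher at 1, 3 and 10 µg/kg, against 0, 9 and 12, and 1 lower at 3 µg/kg, against 0. DESeq2 called 1 higher at 0.01 and 1 at 1 µg/kg, with 18 higher and 1 lower at 3 µg/kg. The share of all genes called was not counted with library size alone, with the 2 groups alone or with DESeq2. Marker counts under these settings therefore lack that comparison. Without the 2 livers that stood apart at 0.01 and 3 µg/kg, 3 markers were called at 1 µg/kg and 19 at 10 µg/kg, and without these and replicate 4 at 30 µg/kg, 5 and 24. With 1 liver of the compared groups left out, 3 to 11 markers were called higher and 0 to 1 lower at 3 µg/kg, and 6 to 11 were called higher at 10 µg/kg, where none of the 10 refits reached 12. The count at 3 µg/kg was 3 without replicate 1 of that group and 5 without vehicle replicate 2, and at 10 µg/kg it was 6 without vehicle replicate 2, 3 or 4 or replicate 4 of that group, and 7 without its replicate 1 or 3. The log2 fold change of Cd3g at 30 µg/kg was 0.29 with all livers and between -0.161 and 0.529 with 1 left out, below 0 without replicate 1 of that group. No other marker changed direction at 30 µg/kg under any setting. The causes of these shifts were not tested. No paired analysis was possible because the labels pair no samples.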
